A study of Rattus norvegicus with 31 samples.

Results

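The comparison described here sets rat testes with estradiol added to hormone ablation against testes with ablation alone. Its members were chosen by the treatment labels and are 17 of the 31 arrays of the series, 6 with estradiol and 11 without. Each array is an Affymetrix rat genome array of total RNA from testes of LBNF1 rats aged 25 to 27 weeks. All groups share irradiation of the lower abdomen with 6 Gy. Ablation was a GnRH antagonist, which shuts off pituitary gonadotropins, together with flutamide, an antagonist of the androgen receptor. The estradiol group had a GnRH antagonist, an androgen receptor antagonist and estradiol, and its label also names FSH supplementation while listing no FSH among the agents. A further 14 arrays came from irradiated rats with sham treatment; they place the levels here, and they also enter the filter and the fit that sets every SE and adjusted p. Their treatment label says irradiated, whereas the description of 10 of them says control. The 6 estradiol arrays were deposited later than the rest, so estradiol treatment and deposit cannot be told apart.

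Estradiol acts through nuclear receptors that bind DNA and switch on target genes. In the testis, Leydig cells between the tubules make testosterone and the peptide hormone Insl3 when luteinizing hormone stimulates them, Sertoli cells inside the tubules support the germ cells, and spermatogonia are the germ cells from which all later stages arise. After irradiation of rats, surviving spermatogonia fail to differentiate, and suppression of gonadotropins and testosterone is known to restore their differentiation. The comparison asks what changes when estradiol is added to ablation. No hormone levels are given here, so suppression in either group is not shown.

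Values are MAS5 signals on a scale read as log2, and a change is the mean of the estradiol arrays minus that of the ablation arrays (6 against 11 arrays throughout), given with its standard error (SE) from the fit. A gene is called where its adjusted p from limma is under 0.05. Fewer cells of a type and less RNA per cell cannot be told apart in whole tissue. The array medians were -1.44 to -1.31 with estradiol and -1.41 to -1.26 with ablation, a difference of -0.04 (exact permutation test over 12376 arrangements, 2-sided p = 0.0847). On the first principal component of the 17 arrays, with 16.2% of their variance, ablation arrays lay between -29.5 and -8.28 and estradiol arrays between 8.23 and 61.4, with estradiol arrays 5 and 6 at the far end (61.4 and 41.1).

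Of 21269 probe sets tested, 1173 were called (5.52%), 126 higher (0.592%) and 1047 lower (4.92%) with estradiol. Of 11387 genes, 83 were higher with estradiol (0.729%) and 311 lower (2.73%), 394 in all (3.46%). Counts of called members in the gene lists below are to be read beside these shares. The median change over all genes was -0.02, and 5112 of the 11387 had a difference above 0. All 6 estradiol arrays lay above every ablation array for 26 genes (0.228%) and below every ablation array for 58 (0.509%). Changes of at least 2-fold were few, 8 higher and 30 lower. The split between directions moved with the scaling: quantile normalization gave 188 genes higher and 299 lower, and median centring of the arrays gave 132 and 209. Against sham, limma called 1051 genes higher (9.23%) and 1460 lower (12.8%) with ablation, and 601 higher (5.28%) and 1355 lower (11.9%) with estradiol plus ablation; both these comparisons share arrays with the one described here. Without estradiol array 5 the calls fell to 245, and without estradiol array 6 to 258.

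**Figure D1:**
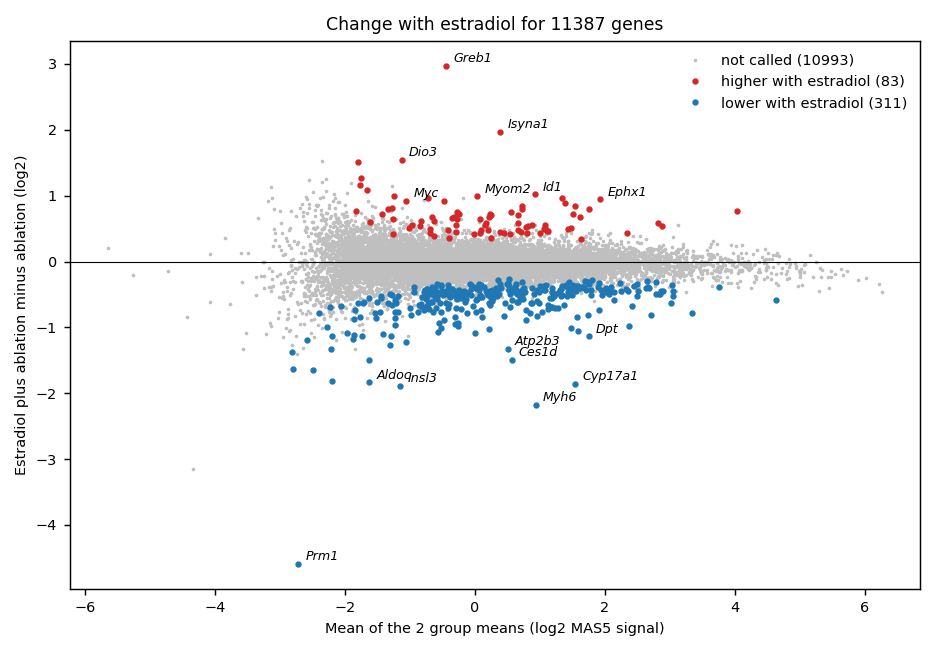
Change with estradiol (vertical axis, log2) against the mean of the ablation and estradiol group means (horizontal axis, log2 MAS5 signal) for each of 11387 genes. Red points are the 83 genes called higher, blue points the 311 called lower and grey points those not called; Greb1 stands alone at the top and Prm1, at low signal, at the bottom.

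Nuclear receptors can act at sites ahead of a gene's start. Before the values, the 150 bases ahead of the annotated start are shown for 4 genes among the 15 highest and 15 lowest changes. They are from RefSeq on GRCr8, in the direction of the gene, and capitals mark a match to TATAAA, the TATA box, or to AGGTCA, the half-site that many nuclear receptors bind, on either strand. Isyna1 lies on the minus strand at chr16:18875956-18876105 and the others on the plus strand, Dio3 at chr6:135106922-135107071, Id1 at chr3:161671414-161671563 and Insl3 at chr16:18433039-18433188.
Isyna1: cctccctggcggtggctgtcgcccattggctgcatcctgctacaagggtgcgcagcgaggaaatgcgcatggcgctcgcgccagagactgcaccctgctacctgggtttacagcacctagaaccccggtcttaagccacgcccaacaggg
Dio3: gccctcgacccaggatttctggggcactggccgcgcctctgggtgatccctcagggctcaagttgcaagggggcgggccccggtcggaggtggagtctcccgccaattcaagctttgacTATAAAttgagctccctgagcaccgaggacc
Id1: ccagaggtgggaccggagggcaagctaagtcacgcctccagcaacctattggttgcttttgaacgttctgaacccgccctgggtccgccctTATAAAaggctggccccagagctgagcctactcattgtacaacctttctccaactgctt
Insl3: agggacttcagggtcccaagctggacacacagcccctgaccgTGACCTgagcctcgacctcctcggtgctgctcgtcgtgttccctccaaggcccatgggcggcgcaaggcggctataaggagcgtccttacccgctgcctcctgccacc
Dio3 and Id1 held a TATA box that began 31 and 59 bases before the start. Insl3 held the half-site on the opposite strand (TGACCT), 108 bases before it, and Isyna1 held neither motif. Over the window from 250 bases before to 50 after the start, AGGTCA was found in 8 of the 63 higher genes with a promoter in the table (12.7%), 25 of 249 lower genes (10.0%), 1134 of 9458 tested genes (12.0%) and 15.7% of all 27457 promoters. TATAAA was found in 9 of 63 higher genes (14.3%), 20 of 249 lower genes (8.03%), 7.14% of tested genes and 14.3% of all promoters. The full estrogen response element, GGTCA and TGACC with 3 bases of any kind between them, was found in 0 of 63 higher and 0 of 249 lower genes, 0 of 9458 tested genes and 7 of all promoters (0.0255%). These counts are a description of letters in a short window. They leave out Greb1 and Cyp17a1, for which no promoter entry was matched.

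Greb1, Myc and Igf1 were higher among genes that estrogen induces in other tissues. Of 15 such genes tested, 3 were called higher and 0 lower, with a median change of 0.08. Over all genes 0.729% were called higher and 2.73% lower, with a median of -0.02. Greb1, a coactivator of the estrogen receptor and one of its best known targets, lay at 0.35 to 1.52 (median 1.07) with estradiol and -3.14 to -1.17 (median -1.70) with ablation. The groups did not overlap, and the change of 2.97 ± 0.26 (SE, adjusted p = 1.1e-09) was 7.86-fold; with values below the 40th percentile of their array (the filter level) raised to it, the change was 2.63. The sham arrays averaged 1.17, from which the estradiol arrays differed by -0.13 ± 0.25 (adjusted p = 0.815). Myc, a regulator of growth, ranged over -0.74 to -0.38 (median -0.63) against -2.06 to -0.87 (median -1.52), again without overlap, a change of 0.92 ± 0.15 (SE, adjusted p = 6.36e-05). Its distance from sham was 0.13 ± 0.14 (adjusted p = 0.642).

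Igf1, a growth factor, changed less and less evenly. Its estradiol arrays spanned 1.39 to 2.31 (median 1.66) and its ablation arrays 0.90 to 1.86 (median 1.24), and 1 estradiol array exceeded all ablation arrays. The change was 0.51 ± 0.13 (SE, adjusted p = 0.0134); without estradiol array 1 the call was lost (0.39, adjusted p = 0.0721), and 2 further probe sets of the gene gave 0.18 and 0.13 and were not called. Of the 12 members not called, Fos had the highest difference (0.55, adjusted p = 0.695) and Ccnd1 the lowest (-0.36, adjusted p = 0.127). The progesterone receptor gene Pgr was above the filter level in 1 of 31 arrays, Esr1 in 1 and Esr2 in 0, so neither estrogen receptor could be tested. None of the 8 tested receptors and coregulators was called by limma, and 0 had an unadjusted p under 0.05; Nrip1, a corepressor, had a difference of 0.22 (adjusted p = 0.441). Among 9 genes of estrogen metabolism, Cyp1b1, which hydroxylates estrogens, was called higher (0.59, adjusted p = 0.00351).

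**Figure D2:**
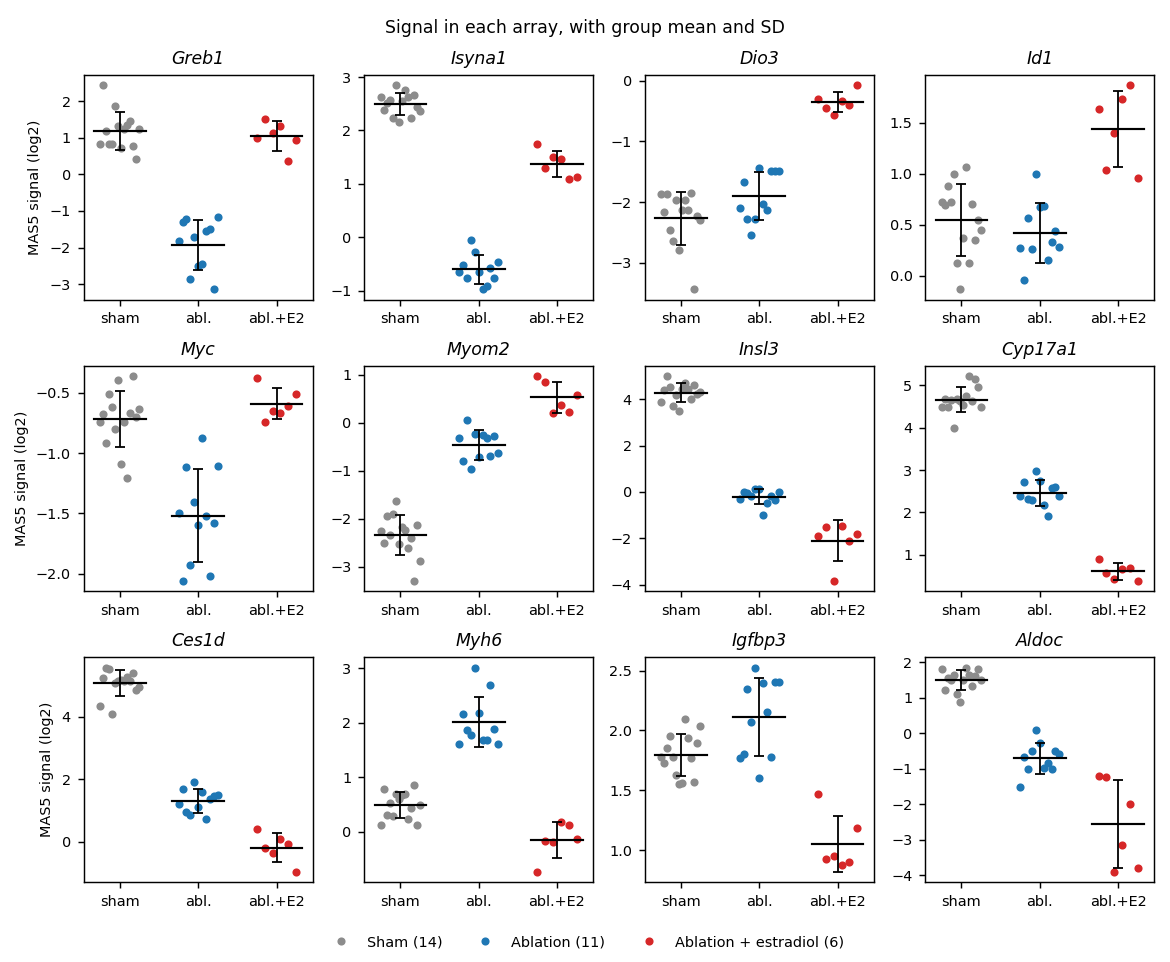
Signal (vertical axis, log2 MAS5 signal) of 12 genes in each of the 14 sham, 11 ablation and 6 estradiol plus ablation arrays; points are arrays, horizontal bars group means and error bars SD. Greb1 and Myc with estradiol lie at the sham level, Myom2 and Dio3 above it, and Insl3, Cyp17a1, Ces1d and Aldoc are stepwise lower from sham to ablation to estradiol.

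Beyond the estrogen lists, the largest higher changes were in Isyna1 and Dio3. Isyna1, which makes inositol phosphate from glucose phosphate, lay at 1.10 to 1.74 (median 1.38) with estradiol and -0.97 to -0.05 (median -0.64) without. No arrays overlapped, and the change of 1.97 ± 0.12 (SE, adjusted p = 9.55e-14) left the gene -1.12 ± 0.12 (adjusted p = 2.48e-09) from the sham mean of 2.50. It was the only one of 8 genes of inositol synthesis and uptake to be called, and their median change was -0.04. Dio3, which inactivates thyroid hormones, spanned -0.56 to -0.07 (median -0.38) against -2.54 to -1.44 (median -2.04). Its change was 1.54 ± 0.20 (SE, adjusted p = 4.27e-06), or 1.33 above the filter level. Its sham mean (-2.27) and ablation mean (-1.90) both lay below that level, so the size of the change rests in part on values that low. Of 10 genes of thyroid hormone handling, Dio3 was called higher and Klf9, a thyroid hormone target, lower (-0.46, adjusted p = 0.0221); the call of Klf9 was lost without estradiol array 1 (-0.41, adjusted p = 0.0703) or 5 (-0.33, adjusted p = 0.141).

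Id1 and Id3, which block differentiation factors and are targets of Bmp signals, were the 2 called among 18 genes of that list, whose median change was 0.22. Id1 ranged over 0.96 to 1.87 (median 1.51) with estradiol and -0.04 to 1.00 (median 0.33) with ablation, and 5 of 6 estradiol arrays exceeded all ablation arrays. The change was 1.02 ± 0.16 (SE, adjusted p = 5.51e-05), with a difference from sham of 0.89 ± 0.16 (adjusted p = 5.13e-05). Id3 changed by 0.75 ± 0.20 (SE, adjusted p = 0.0171), a call lost without estradiol array 5 (0.65, adjusted p = 0.0789), while Id2 had a difference of 0.08 (adjusted p = 0.916). Of 14 genes of the axis of insulin-like growth factors, Igf1 and Stc1 were called higher and Igfbp3 lower. The median of the 14 was 0.16, and 9 had differences above 0, against 5112 of all 11387 genes. In all genes 0.729% were called higher and 2.73% lower. Igfbp3, which binds the growth factors in the extracellular fluid, lay at 0.88 to 1.47 (median 0.94) with estradiol and 1.60 to 2.52 (median 2.15) with ablation. The groups did not overlap, the change was -1.06 ± 0.13 (SE, adjusted p = 5.53e-07), and its second probe set was called too (-0.92). Stc1, a secreted glycoprotein that inhibits the protease of Igf binding proteins, ranged over 0.40 to 1.57 (median 1.22) against -0.04 to 0.70 (median 0.37) and rose by 0.80 ± 0.15 (SE, adjusted p = 0.000312); its second probe set gave 1.18 and was not called (adjusted p = 0.177).

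Other genes among the 15 highest changes were Ephx1, an epoxide hydrolase (0.94 ± 0.15 SE, adjusted p = 4.8e-05), Inmt, a methyltransferase (0.96 ± 0.18 SE, adjusted p = 0.000526), Pllp (1.00 ± 0.15 SE, adjusted p = 2.4e-05) and G0s2, an inhibitor of fat breakdown (0.93 ± 0.20 SE, adjusted p = 0.00283). Ephx1 lay at 2.03 to 2.82 (median 2.41) against 1.07 to 1.77 (median 1.43), with no overlap, and Inmt and Pllp did not overlap either, whereas 3 of 6 estradiol arrays of G0s2 exceeded all ablation arrays. In Htr4 (1.51), Slpi (1.27), Mgarp (1.17) and Sult1c2 (1.08) the ablation arrays averaged below the filter level, and the changes above it were 0.65, 0.63, 0.59 and 0.63. Slpi lost its call without ablation array 2, 5, 6 or 9 or estradiol array 1, 4, 5 or 6 (adjusted p of up to 0.0954). Htr4 was not called as the mean of its probe sets (0.85, adjusted p = 0.0878), and Mgarp was not called without the extremes of the first component (ablation 5 and 10, estradiol 2 and 5; 1.16, adjusted p = 0.08). Dusp1, a phosphatase induced by many stimuli, changed by 0.96 ± 0.26 (SE, adjusted p = 0.0197). Its call was lost without estradiol array 5 (0.88, adjusted p = 0.0701) or 6 (0.75, adjusted p = 0.11). It was the 1 called among 19 immediate early and stress genes, whose summed level was 5.43 to 5.95 with ablation and 5.54 to 6.61 with estradiol (the part of this in the result was not tested).

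**Figure D3:**
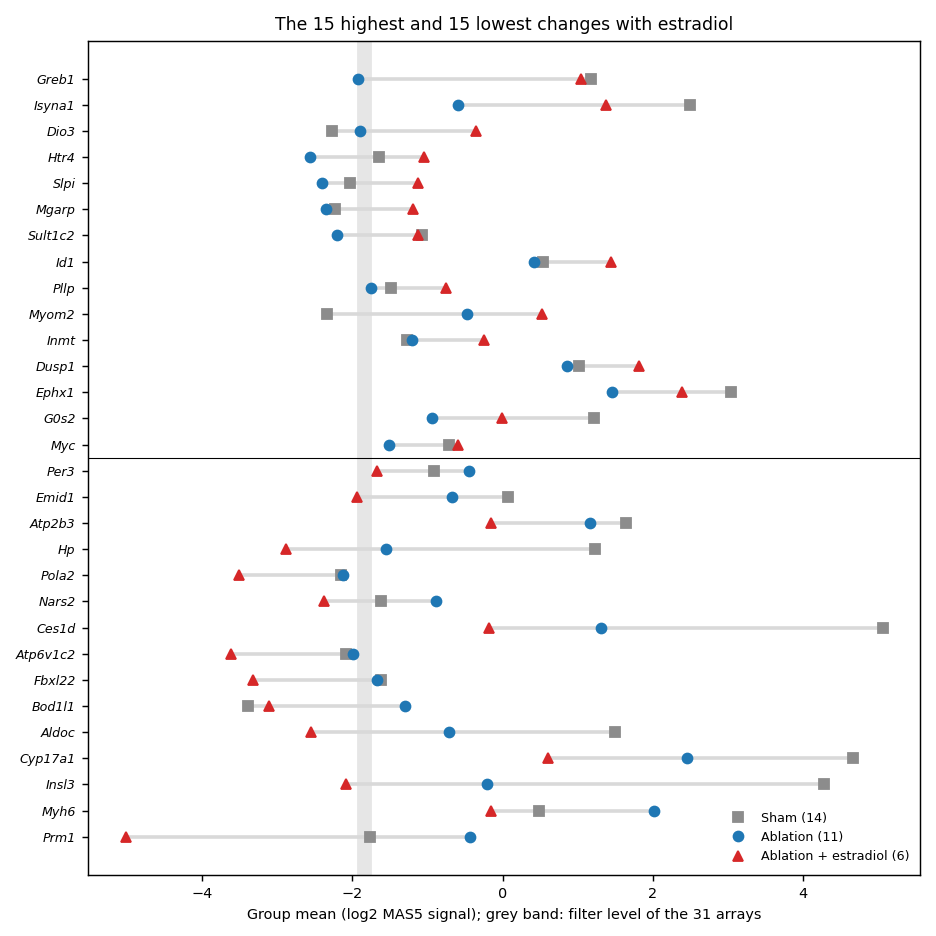
Group means (horizontal axis, log2 MAS5 signal) of the 15 highest and the 15 lowest changes with estradiol, for sham (squares), ablation (circles) and estradiol plus ablation (triangles); the grey band is the filter level of the 31 arrays, from -1.93 to -1.75. Many of the lower genes, among them Prm1 and Hp, fall below the band with estradiol, while Atp6v1c2 and Pola2 lie below it in every group.

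Insl3, Cyp17a1, Ces1d and Cyp11a1, genes of Leydig cells, were lower with estradiol. Insl3, the peptide hormone of Leydig cells, lay at -3.82 to -1.45 (median -1.85) with estradiol and -0.98 to 0.14 (median -0.18) with ablation. The groups did not overlap and the change was -1.88 ± 0.23 (SE, adjusted p = 1.16e-06), or -1.52 above the filter level; estradiol array 3 was far below the other estradiol arrays. Cyp17a1, which turns progestins into androgens, ranged over 0.39 to 0.91 (median 0.61) against 1.92 to 2.99 (median 2.39), and no array overlapped. It was 3.61-fold lower, a change of -1.85 ± 0.14 (SE, adjusted p = 2.89e-11), from an ablation level already -2.20 from sham. Ces1d, a carboxylesterase, lay at -0.96 to 0.40 (median -0.13) against 0.73 to 1.93 (median 1.37), with no overlap and a change of -1.49 ± 0.19 (SE, adjusted p = 2.51e-06). Cyp11a1, which takes the first step from cholesterol to steroids, spanned -0.60 to -0.21 (median -0.44) against -0.07 to 0.43 (median 0.15). Its groups did not overlap, although the change was smaller, -0.56 ± 0.13 (SE, adjusted p = 0.00529), and was not called without the extremes of the first component (-0.47, adjusted p = 0.12).

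The other tested genes of the Leydig lists were not called. Of 13 genes of Leydig steroid synthesis, Cyp11a1 and Cyp17a1 were called lower and 0 higher, and the median change was 0.11. For all genes, 2.73% were called lower and 0.729% higher, and the median was -0.02. Of 18 Leydig cell markers, Insl3 and Ces1d were called lower and 0 higher, with a median of 0.09. The summed level of the markers was 5.64 to 6.09 with ablation and 5.66 to 6.05 with estradiol. Lhcgr, the luteinizing hormone receptor, had a difference of 0.11 ± 0.13 (SE, adjusted p = 0.754), and Star, which carries cholesterol into mitochondria, one of 0.11 ± 0.18 (SE, adjusted p = 0.817). Hsd11b1, a marker of mature Leydig cells, had a difference of 0.09 ± 0.14 (SE, adjusted p = 0.808) and Nr5a1, the regulator of steroid enzymes, one of 0.43 ± 0.16 (SE, adjusted p = 0.109). Nr5a1 was called after quantile normalization (0.49, adjusted p = 0.0366), with only the 2 groups compared (0.43, adjusted p = 0.0328) and without estradiol array 3 (0.53, adjusted p = 0.0498). Hsd17b3, which makes testosterone, had a difference of 0.14 ± 0.29 (SE, adjusted p = 0.862), with signals near the filter level. In cholesterol synthesis and uptake 3 of 19 genes had a difference above 0, against 5112 of all 11387 genes, and the median was -0.18. Cyp51 (-0.44, adjusted p = 0.018) and Insig1 (-0.41, adjusted p = 0.0255) were called lower and 0 genes higher. The call of Cyp51 was lost without estradiol array 5 (-0.40, adjusted p = 0.064) or 6 (-0.38, adjusted p = 0.0829), and that of Insig1 without estradiol array 3 (-0.35, adjusted p = 0.0893) or 5 (-0.33, adjusted p = 0.124) and after centring on the median (-0.36, adjusted p = 0.0911).

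Dmrt1 was the 1 called of 18 Sertoli cell markers. This transcription factor, which spermatogonia also express, lay at -0.50 to 0.50 (median 0.00) with estradiol and -0.96 to -0.31 (median -0.57) with ablation, and 5 of 6 estradiol arrays exceeded all ablation arrays, a change of 0.65 ± 0.14 (SE, adjusted p = 0.0019). The median over the markers was -0.11. Inhbb, the inhibin beta B subunit, had a difference of 0.13 ± 0.15 (SE, adjusted p = 0.716) and Inha, the alpha subunit, one of 0.39 ± 0.13 (SE, adjusted p = 0.0577); Inha was called after quantile normalization (0.45, adjusted p = 0.0242). Because the label names FSH, genes that respond to it in Sertoli cells were counted. Of 16, Dusp1 and Cebpb were called higher and 0 lower, with a median of 0.12. A difference above 0 was seen in 13 of the 16, against 5112 of all 11387 genes. By limma 8 of them had an unadjusted p under 0.05 in either direction, against 1489 of all genes. A role of FSH was not tested. Cebpb, a transcription factor, changed by 0.67 ± 0.17 (SE, adjusted p = 0.00961), a call lost without estradiol array 6 (0.56, adjusted p = 0.056). Aromatase, Cyp19a1, had a difference of 0.06 ± 0.29 (SE, adjusted p = 0.952). Osr2 was the 1 called of 11 androgen-responsive Sertoli cell genes (0.51, adjusted p = 0.00875). Crabp2, which carries retinoic acid, was the 1 called of 12 genes of retinoid metabolism, at -1.31 to -0.60 (median -1.16) against -2.35 to -1.53 (median -1.70) with no overlap, a change of 0.72 ± 0.14 (SE, adjusted p = 0.00087).

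Ret and Sox3, genes of spermatogonia, were higher. Of 12 genes of undifferentiated spermatogonia, 11 had differences above 0, against 5112 of all 11387 genes. The median of the 12 was 0.39, and Ret and Sox3 were the 2 called. Ret, the receptor through which Gdnf maintains stem cells, lay at -1.32 to -0.35 (median -0.90) against -2.40 to -1.19 (median -1.59), and 5 of 6 estradiol arrays exceeded all ablation arrays. Gfra1, its partner, had a difference of 0.19 ± 0.11 (SE, adjusted p = 0.401), Id4 one of 0.48 (adjusted p = 0.0674) and Epcam one of -0.06 (adjusted p = 0.915). The call of Ret was lost without estradiol array 1, 5 or 6, with adjusted p of up to 0.0887, and that of Sox3 without estradiol array 1 (0.46, adjusted p = 0.0762). None of 5 genes of differentiating spermatogonia was called by limma (1 with an unadjusted p under 0.05). All 5 had differences above 0, with a median of 0.18. Kit had a difference of 0.27 ± 0.33 (SE, adjusted p = 0.75), with 4 estradiol arrays above and 2 below all ablation arrays. Of 21 genes of cell division, 20 had differences above 0 and the median was 0.26. Ccna2, a cyclin, was the 1 called (0.79 ± 0.24 SE, adjusted p = 0.0424), and its call was lost without any single one of the 6 estradiol arrays or of 6 ablation arrays (adjusted p of up to 0.105); Mki67 had a difference of 0.19 ± 0.20 (SE, adjusted p = 0.698).

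Prm1, which packs DNA in spermatids, had the lowest change of all genes and also one of the least even. Its estradiol arrays spanned -6.09 to -2.43 (median -5.40) and its ablation arrays -5.14 to 4.18 (median -0.38), so the groups overlapped, and 3 estradiol arrays lay below all ablation arrays. The change was -4.59 ± 1.33 (SE, adjusted p = 0.0309), and -2.06 above the filter level, where it was not called (-2.06, adjusted p = 0.226). Its call was lost without ablation array 4, 5 or 9 or estradiol array 1, 2, 3, 4 or 6 (adjusted p of up to 0.0814). Tnp1, which precedes the protamines on DNA, had a difference of -3.15 ± 1.35 (SE, adjusted p = 0.206). The summed level of the 8 meiotic and spermatid genes was 0.83 to 4.75 with ablation and 0.87 to 1.26 with estradiol. In sham arrays it was 0.40 to 6.42, so the high levels were in some ablation and some sham arrays. Against sham, Prm1 with estradiol had a difference of -3.26 ± 1.27 (SE, adjusted p = 0.085).

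**Figure D4:**
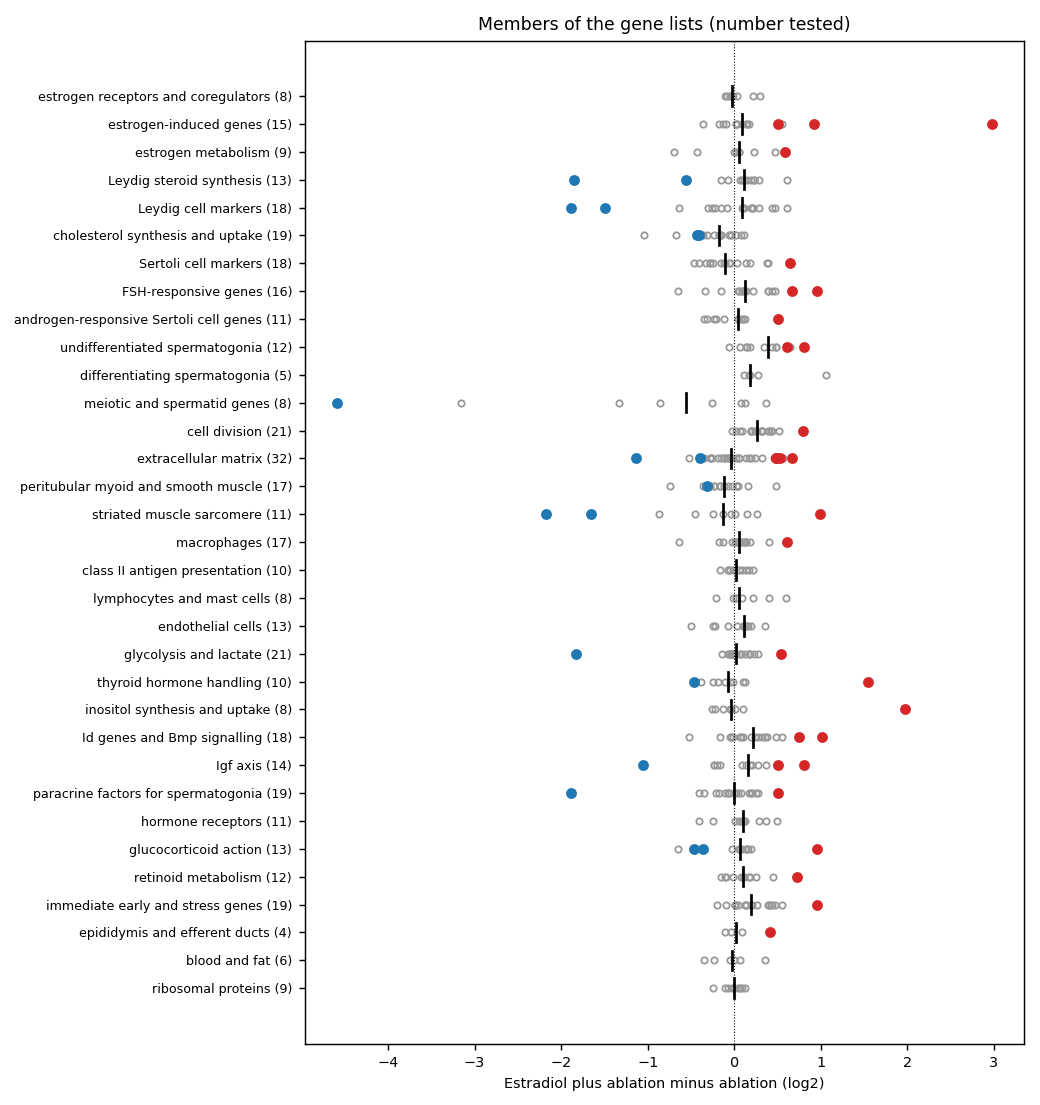
Change with estradiol (horizontal axis, log2) of each tested member of 33 gene lists, with the number tested in brackets; red points are members called higher, blue points members called lower, open points members not called, and black bars list medians. Over all 11387 genes, 0.729% were called higher and 2.73% lower, with a median change of -0.02. The bars of undifferentiated spermatogonia (0.39) and cell division (0.26) lie to the right of 0.

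Genes of the striated muscle sarcomere moved apart. Myh6, the alpha myosin heavy chain of heart muscle, lay at -0.74 to 0.18 (median -0.15) with estradiol and 1.61 to 3.02 (median 1.87) with ablation. The groups did not overlap, and the change of -2.17 ± 0.17 (SE, adjusted p = 3.52e-11) took the gene below sham by -0.64 ± 0.16 (adjusted p = 0.00452), whereas ablation alone had placed it 1.53 from sham. Myom2, a protein of the sarcomere M band, went the other way, at 0.20 to 0.97 (median 0.47) against -0.97 to 0.06 (median -0.32), a change of 0.99 ± 0.18 (SE, adjusted p = 0.000375). Its sham mean of -2.34 lay below the filter level, and above that level ablation alone had placed it 1.36 from sham. Fbxl22 was lower by the deposited values (-1.65), but -0.21 above the filter level, where it was not called. These 3 were the called members of 11. Myl9, a myosin light chain, was the 1 called of 17 genes of peritubular myoid and smooth muscle (-0.31 ± 0.09 SE, adjusted p = 0.042), a call lost under 17 of 27 alternatives, and Acta2 had a difference of 0.03 ± 0.24 (SE, adjusted p = 0.97).

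Matrix genes were called in both directions, 4 higher and 2 lower of 32, with a median of -0.04. Among all genes the shares were 0.729% higher and 2.73% lower, with a median of -0.02. Dpt, a matrix protein that binds collagen fibres, lay at 0.96 to 1.41 (median 1.18) against 2.02 to 2.88 (median 2.28), with no overlap and a change of -1.14 ± 0.15 (SE, adjusted p = 2.72e-06); a second probe set was called too (-0.74). Lum (0.67), Col6a3 (0.52) and Col6a1 (0.49), all matrix structural genes, were higher, with adjusted p of 0.00253, 0.00193 and 0.0035, as was Lox, which cross-links collagen (0.48, adjusted p = 0.00883). Col3a1, a fibrillar collagen, was lower (-0.40, adjusted p = 0.00679); Lox and Col3a1 are named after their values were seen. Col1a1, the main fibrillar collagen, had a difference of 0.19 ± 0.19 (SE, adjusted p = 0.689). In glycolysis, 1 of 21 genes was higher, Tpi1 (0.54, adjusted p = 0.0165), a call lost without estradiol array 5 (0.49, adjusted p = 0.0623), and 1 lower, the aldolase Aldoc. Aldoc lay at -3.91 to -1.21 (median -2.57) with estradiol and -1.52 to 0.08 (median -0.67) with ablation, and 4 of 6 estradiol arrays were below all ablation arrays, a change of -1.83 ± 0.28 (SE, adjusted p = 3.64e-05), or -0.94 above the filter level.

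Further lists of cell types and functions are set beside the share of all genes called, 3.46% (0.729% higher and 2.73% lower). At that share, lists this short can hold 0 or 1 call. Clec10a, a lectin of macrophages, was the 1 called of 17 macrophage genes (0.61 ± 0.16 SE, adjusted p = 0.0166), a call lost without estradiol array 1 (0.52, adjusted p = 0.0683) or 5 (0.53, adjusted p = 0.0763), while Cd163 had a difference of -0.13 ± 0.16 (SE, adjusted p = 0.743). The summed macrophage level was 4.44 to 4.91 with ablation and 4.45 to 4.78 with estradiol. Endothelial genes had 0 of 13 called by limma (1 with an unadjusted p under 0.05), and Pecam1 had a difference of 0.12 ± 0.15 (SE, adjusted p = 0.775). Class II antigen presentation had 0 of 10 called (0 with an unadjusted p under 0.05), lymphocytes and mast cells 0 of 8 (1) and blood and fat 0 of 6 (1). Of 4 genes of epididymis and efferent ducts, Aqp9, a water channel, was called (0.41, adjusted p = 0.0349), a call lost without any of 5 ablation or 4 estradiol arrays (adjusted p of up to 0.103). In glucocorticoid action, Dusp1 was higher and Klf9 and Hsd11b2, which inactivates glucocorticoids, lower of 13; Hsd11b2 (-0.36, adjusted p = 0.0366) lost its call under 15 of 27 alternatives. Secreted factors for spermatogonia had 1 higher (Igf1) and 1 lower (Insl3) of 19; Kitlg had a difference of -0.11 ± 0.10 (SE, adjusted p = 0.668), although the weakest of its 4 probe sets was called lower (-1.15, adjusted p = 0.0256), and Cxcl12 had one of -0.07 ± 0.11 (SE, adjusted p = 0.824). Hormone receptors had 0 of 11 called (4 with an unadjusted p under 0.05), where the growth hormone receptor Ghr had a difference of 0.50 ± 0.20 (SE, adjusted p = 0.184).

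Other genes among the 15 lowest changes came from varied functions. Emid1, a matrix protein, lay at -2.21 to -1.36 (median -1.98) against -1.01 to -0.07 (median -0.74), with no overlap and a change of -1.27 ± 0.12 (SE, adjusted p = 1.02e-08). Its estradiol mean (-1.94) was just below the filter level, and the change above that level was -1.12. Atp2b3, a calcium pump of the plasma membrane, spanned -0.89 to 0.56 (median -0.32) against 0.71 to 1.47 (median 1.18), also without overlap, a change of -1.32 ± 0.17 (SE, adjusted p = 1.38e-06). Per3, a gene of the circadian clock, ranged over -2.89 to -1.05 (median -1.33) against -0.81 to 0.05 (median -0.48), and its groups did not overlap either (-1.22 ± 0.22 SE, adjusted p = 0.00028). Nars2, a mitochondrial aminoacyl-tRNA synthetase, changed by -1.49 and Hp, haptoglobin, by -1.33. With estradiol Nars2, Hp, Bod1l1 (-1.81), Atp6v1c2 (-1.63) and Pola2 (-1.38), averaged below the filter level; above it the changes were -0.91, -0.28, -0.60, -0.26 and -0.20. At those values Hp (adjusted p = 0.43), Atp6v1c2 (adjusted p = 0.221) and Pola2 (adjusted p = 0.326) were not called. Atp6v1c2 and Pola2 also averaged below the filter level with ablation (-1.99 and -2.12) and in sham (-2.09 and -2.15). Bod1l1 was not called with the replicate block (-1.58, adjusted p = 0.0503) or without the extremes of the first component (-1.86, adjusted p = 0.0598), nor Atp6v1c2 without those extremes (-1.31, adjusted p = 0.123). Pola2 also lost its call without ablation array 5 or estradiol array 3, 4, 5 or 6 (adjusted p of up to 0.0949).

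Of the 77 genes named by rule, 55 were called, 30 of them under every alternative that gave a value (27, or 26 for Pllp and Crabp2, which the filter at the 60th percentile left out). Another 25 lost the call under at least 1, and 18 in at least 1 of the 17 fits that left out an array. None of the 55 changed sign. In 16 the lower group averaged below the filter level, and in 21 the groups did not overlap. Over all 11387 genes, 26 (0.228%) were higher and 58 (0.509%) lower without overlap. The rule picks largely by the change or adjusted p in these same data, which favours genes without overlap.

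**Figure D5:**
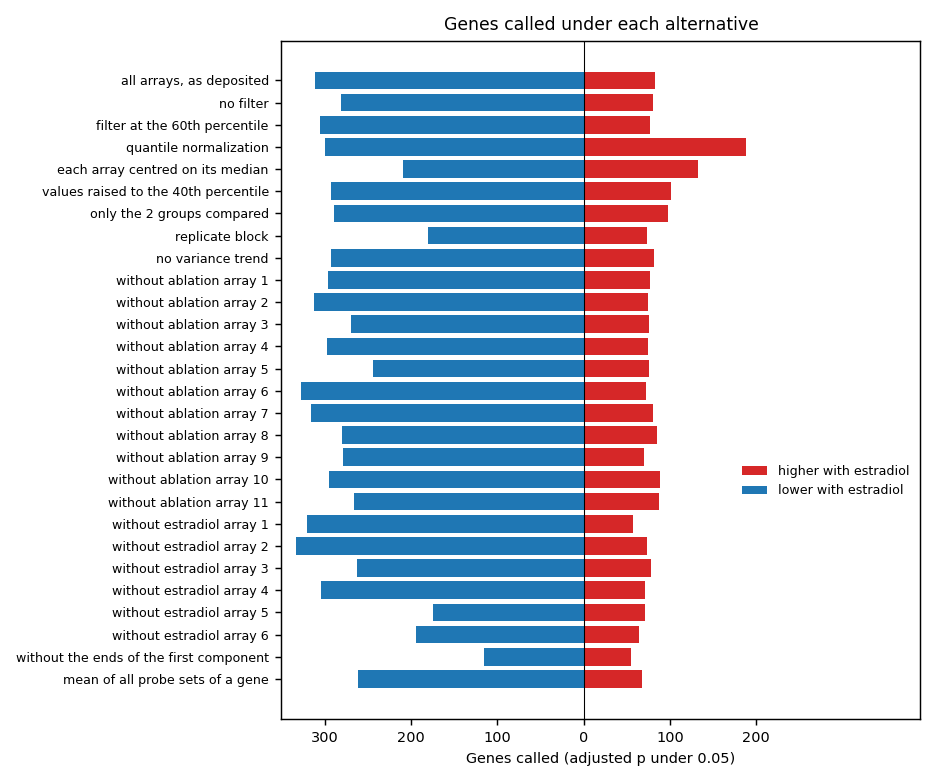
Genes called higher (red, to the right) and lower (blue, to the left) with estradiol under each alternative (horizontal axis, number of genes). The 4 shortest blue bars are those without the extremes of the first component (115 genes), without estradiol array 5 (174), with the replicate block (180) and without estradiol array 6 (194), and quantile normalization the longest red bar (188 genes).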

How the data were processed

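The deposited values, taken here as log2, are MAS5 signals that the authors placed on a log scale before deposit, per the submitters' processing notes. The base was read as 2, since the values of an array spanned 15.8 to 19.3; the labels do not state it, and every fold rests on this reading. The 6 estradiol arrays carry 2 decimals. Of 31099 probe sets, 57 controls were left out, and 21269 exceeded the 40th percentile of their own array in at least 6 arrays. Names came from the platform annotation, updated by Entrez number for 20758 probe sets. A gene is its kept probe set of highest mean with exactly 1 symbol. Each probe set was fitted with limma 3.58.1 in R 4.3.3 over all 31 arrays in 3 groups, with a variance trend and 2-sided p-values adjusted by Benjamini-Hochberg over all kept probe sets. For arrays their number limits the precision, and the labels call each a biological replicate. The pipeline was tested on simulated data.

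Named genes are the 15 highest and 15 lowest changes among called genes, up to 4 called members of each of 33 lists, and 50 fixed genes, of which 39 were tested. Pgr, Esr1, Esr2, Sult1e1, Amh and Gdnf were below the filter, and Sox9, Fshr, Zbtb16 and Stra8, among others, were not analysed here. Members and lists were chosen with earlier results of these data known. Summed level means the log2 of the members' summed signals. Alternatives were other filters, scalings, fits and probe set rules, a replicate block, and leaving out arrays.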

Additional observations from a re-analysis of the deposited data

Results flagged for a closer look

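In 4 of 79 checks over the 6 estradiol arrays, 77 of named genes and 2 of the array median and SD, 1 array stood apart from the rest of its group; chance alone gives about 1 in 20. Prm1 was -2.43 in estradiol array 5 against -6.09 to -4.77 in the others. Insl3 was -3.82 in estradiol array 3, below the -2.09 to -1.45 of the others. Emid1 was -1.36 in estradiol array 2, where the others lay between -2.21 and -1.93. Crabp2 was -0.60 in estradiol array 3 and -1.31 to -1.07 in the others.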

How the results depend on the processing

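The count of called probe sets was 1173 and lay between 830 and 1205 when 1 array was left out; it was 621 without the extremes of the first component (ablation 5 and 10, estradiol 2 and 5). For genes the count of 394 lay between 245 and 406 when 1 array was left out, was 253 with the replicate block and 170 without those extremes. Probe sets called with at least a 2-fold change numbered 277, between 224 and 329 when 1 array was left out, 160 with the filter at the 60th percentile and 119 with values raised to the 40th percentile. The deviations of same-numbered ablation and estradiol arrays correlated between -0.182 and 0.0594 over 6 pairs. A correlation over all kept probe sets cannot exclude a pairing by replicate number that affected fewer of them. With scaling by quantiles 24.0% of called probe sets were higher, and with median centring 20.1%, against 10.7% as deposited. Genes that were not called and changed sign were Hsd17b3 (-0.11 with values raised, -0.13 to 0.23 when 1 array was left out), Cxcl12 (0.057 with the replicate block, 0.015 without those extremes, 0.087 as the mean of its probe sets), Kit (-0.0045 without those extremes), Ghr (-0.038 with values raised), Acta2 (-0.0032 with the block, -0.046 to 0.13 when 1 array was left out), Cyp19a1 (-0.014 to 0.13) and Id2 (-0.039 to 0.31) when 1 array was left out. The cause was not tested. Signal near the filter level limits the lowest genes.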

Other observations

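Probe sets with no gene symbol made up a large part of the lower calls. Of 5420 such probe sets, 595 were called (11.0%), 575 of them lower and 20 higher, with a median change of -0.10; of 15494 with 1 symbol, 571 were called (3.69%), 466 of them lower and 105 higher, with a median of -0.01. Over 5 equal bins of mean signal, the share called was 3.74% in the lowest bin, 7.50% in the middle bin and 4.84% in the highest.

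After Per3 was seen among the lowest changes, 16 genes of the circadian clock and its output were listed. Per3 was the 1 called, the median change was -0.07, and Per2 (-0.38, adjusted p = 0.14), Cry1 (-0.25, adjusted p = 0.377), Bmal1 (0.19, adjusted p = 0.584) and Dbp (-0.01, adjusted p = 0.991) were not called.

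Further called genes, chosen after their values were seen, were Egfr, the receptor of epidermal growth factor (0.67 ± 0.15 SE, adjusted p = 0.00286), Vldlr, a lipoprotein receptor (0.64 ± 0.10 SE, adjusted p = 3.2e-05), and Angptl4, an inhibitor of lipoprotein lipase (0.72 ± 0.12 SE, adjusted p = 0.000143), all higher with estradiol. Gria2, a glutamate receptor subunit (-1.07 ± 0.16 SE, adjusted p = 2.4e-05) and Ces1c, a carboxylesterase (-0.96 ± 0.18 SE, adjusted p = 0.000562), were lower. Of the called genes with several probe sets, all probe sets had 1 sign in 18 of 20 higher and 71 of 107 lower genes, and 0 had another probe set called the opposite way.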
